A study of Mus musculus with 24 samples.

Results

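*Islr* and *Gpr137b* are 2 protein-coding genes of 55291 gene symbols in the count table, and their levels were followed across all 24 libraries of the experiment. They were selected on the Cu response of the control cells: both had an adjusted p under 0.05 in scr myoblasts given copper against untreated scr myoblasts. The values of that contrast are therefore a description of how the genes were chosen. Metal responses and levels of the knockdown lines were tested on libraries that the choice did not use. Libraries of scr cells did enter the fits that compared knockdown with scr under zinc. They also entered the fits that compared copper responses between knockdown lines. Mouse C2C12 myoblasts, an established line of proliferating muscle precursors, carried a scrambled shRNA (scr) or an shRNA against *Baf180* (*Pbrm1*), *Baf250a* (*Arid1a*) or *Brd9*. According to the study's methods the cells were stable populations transduced with lentivirus, whereas the sample labels name primary myoblasts and Lipofectamine knockdown (KD). Each line was left without added metal (NT) or received 100 µM CuSO4 (Cu) or 50 µM ZnSO4 (Zn) over 48 h, giving 12 groups of 2 replicates. Expression was measured by rRNA-depleted, strand-specific RNA-seq.

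The 3 targeted proteins each define a form of the SWI/SNF chromatin remodelling complex, which moves nucleosomes: BAF180 belongs to PBAF, BAF250A to canonical BAF and BRD9 to the non-canonical ncBAF. *Islr* encodes Meflin, a secreted or membrane-anchored protein with leucine-rich repeats and an immunoglobulin domain, which marks mesenchymal stromal cells and fibroblasts and has been linked to BMP and Wnt signalling. *Gpr137b* encodes a multi-pass membrane protein of the lysosome, which acts with the Rag GTPases in the control of mTORC1, the kinase complex that couples nutrients to growth. Copper is a cofactor of the lysyl oxidases and other enzymes, and excess copper or zinc induces metallothioneins through the transcription factor MTF1.

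*Islr* (ENSMUSG00000037206.15) lies on the minus strand of chromosome 9 at 58156268 to 58204306 (GRCm38), and its Islr-201 transcript of 2223 bases has 2 exons. Its exons share 181 bases with exons of *Islr2* on the same strand, which is 6.74% of the *Islr* exon length. The 250 bases before a RefSeq start of *Islr* (GRCm38, minus strand) lie upstream of the start of Islr-202 and within an intron of Islr-201. They are shown because MTF1 binds metal response elements, and a match to the core of that element, TGCACNC or TGCGCNC on either strand, is in capitals.

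*Islr* chr9:58158555-58158804: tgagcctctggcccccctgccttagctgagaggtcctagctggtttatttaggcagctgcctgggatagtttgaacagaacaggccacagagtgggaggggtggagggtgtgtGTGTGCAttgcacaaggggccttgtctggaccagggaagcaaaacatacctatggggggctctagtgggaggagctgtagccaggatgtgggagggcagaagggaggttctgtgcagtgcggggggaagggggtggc

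The window held 1 match, which starts at base 114 from the window's 5′ end. Of 32851 RefSeq windows of this length, 7032 (21.41%) held at least 1 match, so a match of this kind is frequent and is a description of the letters only.

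*Gpr137b* (ENSMUSG00000021306.11) lies on the minus strand of chromosome 13 at 13357620 to 13394014 and has a near-identical copy, the transcribed pseudogene *Gpr137b-ps*, at 12615057 to 12650388 of the same chromosome and strand. The Gpr137b-ps-202 transcript aligned with Gpr137b-201 over 1159 columns, of which 1153 (99.48%) were identical, 5 were mismatches and 1 was a gap. The alignment spanned the 1158 coding bases of *Gpr137b*. The stretches around the gap and around a mismatch are shown because, within the aligned part, only reads that cover such differences can be assigned to a copy; a base that differs between the copies is in capitals.

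*Gpr137b* chr13:13393363-13393421: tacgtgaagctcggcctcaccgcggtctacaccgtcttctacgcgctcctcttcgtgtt

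*Gpr137b-ps* chr13:12650155-12650214: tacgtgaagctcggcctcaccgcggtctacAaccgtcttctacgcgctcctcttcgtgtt

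*Gpr137b* chr13:13365112-13365171: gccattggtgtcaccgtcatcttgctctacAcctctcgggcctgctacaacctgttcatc

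*Gpr137b-ps* chr13:12621424-12621483: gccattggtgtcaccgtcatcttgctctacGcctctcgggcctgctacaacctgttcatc

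The base inserted in *Gpr137b-ps* shifts the reading frame of the pseudogene at that point. Of the 50-base windows in the coding sequence of Gpr137b-201, 811 of 1109 (73.13%) also occur in *Gpr137b-ps*, against 1444 of 5107 (28.27%) over all exons of *Gpr137b*. Only uniquely mapped read pairs were counted, so counts of *Gpr137b* come from the parts that differ, and the split between the copies is uncertain.

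Total counts per library ranged from 495778 to 75179394 with a median of 22158430. *Baf250a* KD with Zn replicate 2 was the shallowest library, with 162 counts of *Islr* and 37 of *Gpr137b*, so the values that it moved are also given without it. The targeted gene was lower in every library of its KD than in every scr library for all 3 targets. Counts on *Lars2* and other rRNA-linked genes took 4.75% and 1.69% of the NT scr libraries and 0.0867% to 1.11% of the others. Myoblast markers were detected in all 4 lines (*Des* and *Itga7* among them). Some averaged under 1 CPM (read counts scaled to library size, after TMM). These were *Fgfr4* in scr (0.0973) and *Brd9* KD (0.78), and *Pax7* in *Baf250a* KD (0.661). Macrophage markers summed to at most 22.9 CPM, mostly from *Cd14* (line means of 8.76 to 16.2 CPM) and *Cd68* (3.78 to 4.93 CPM). *Lyz2* averaged 2.25 CPM in *Baf250a* KD, and *Ptprc* and *Adgre1* were at or near 0. In bulk RNA, fewer cells of a type and less RNA per cell cannot be told apart.

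In scr cells Cu lowered *Islr* and raised *Gpr137b* relative to the rest of the transcriptome, which is what selected them. *Islr* was 19.0 and 21.9 CPM in the NT scr libraries, 8.95 and 8.09 CPM with Cu and 17.0 and 16.6 CPM with Zn. *Gpr137b* was 23.8 and 22.1 CPM in the NT scr libraries, 55.3 and 49.5 CPM with Cu and 31.8 and 31.3 CPM with Zn. For both genes the Cu libraries stood apart from the NT and Zn libraries. The log2 fold change with Cu was -1.28 (SE 0.12) for *Islr* and 1.18 (SE 0.10) for *Gpr137b*. In this contrast 5 of 15002 genes were called (0.0333%), the other three being *Mir6236*, *Gm15564* and *Lars2*. *Lars2* is also protein-coding, but like the other two it is on the list of rRNA-linked genes, and its mean fell from 998 to 32.4 CPM between NT and Cu libraries, which differed in rRNA-linked share as given above. *Islr* was the last gene inside the threshold with an adjusted p of 0.0285 from edgeR, and *Gsta4*, a glutathione transferase, was the next outside it (log2 fold change 0.97, adjusted p = 0.118). It was followed by *Gas1* (-0.77, adjusted p = 0.118) and *Hmga2* (0.80, adjusted p = 0.129), also from edgeR. With Zn the log2 fold changes in scr cells were -0.27 (SE 0.12) for *Islr* and 0.48 (SE 0.10) for *Gpr137b*. These share the NT libraries with the selecting contrast and were not tested. After a correction for GC content and length the Zn value of *Islr* in scr cells was 0.06, and its Cu value was -1.14. The corresponding values of *Gpr137b* were 0.59 and 1.20. The GC trend of the libraries differed between these groups, with slopes of log2 CPM per 10 percentage points of GC of 0.10 and 0.33 in NT, 0.18 and -0.12 in Cu, and -0.27 and -0.35 in Zn libraries.

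**Figure D1:**
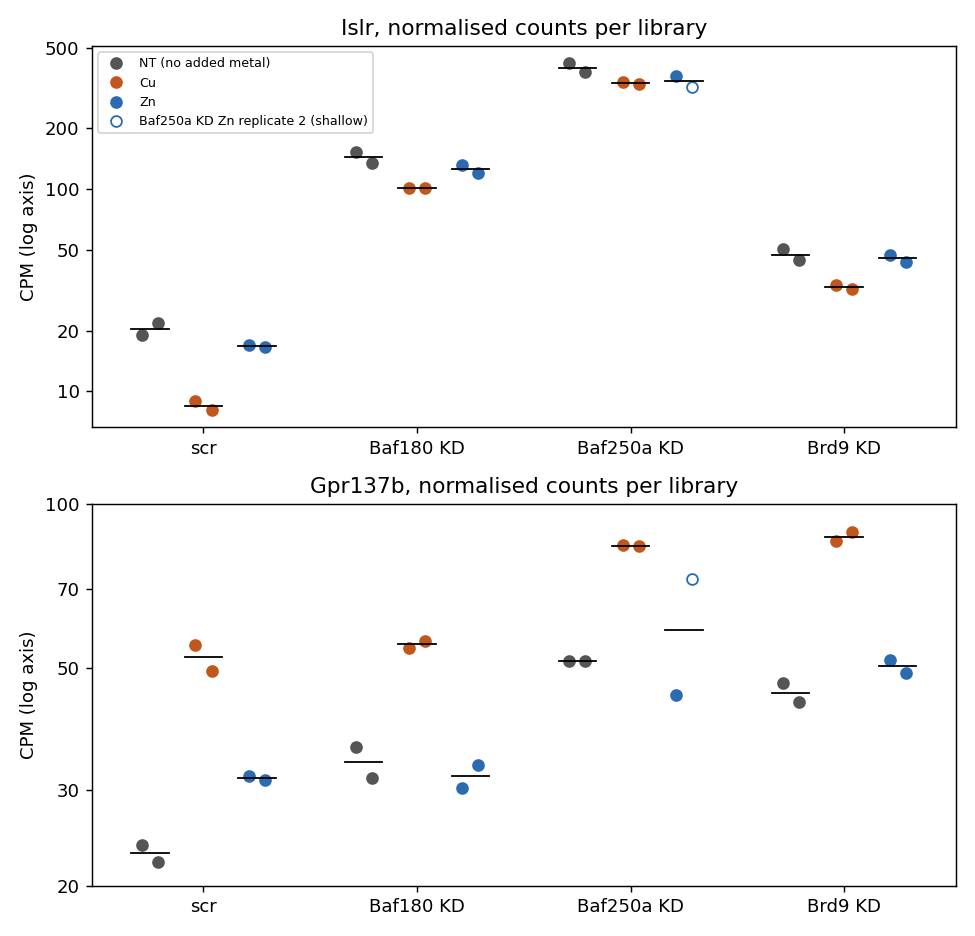
CPM of *Islr* (top) and *Gpr137b* (bottom) on log axes in each of the 24 libraries by cell line and treatment, with a bar at each group mean (n = 2) and an open circle for the shallow *Baf250a* KD Zn library. *Islr* separates the lines in the order scr, *Brd9* KD, *Baf180* KD and *Baf250a* KD, and the Cu libraries lie below the NT libraries for *Islr* and above them for *Gpr137b* in each line.

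The Cu response of *Gpr137b* was also present in each of the 3 KD lines, whose libraries did not take part in the choice. In *Baf180* KD cells *Gpr137b* was 35.9 and 31.5 CPM in NT, 54.6 and 56.2 CPM with Cu and 30.2 and 33.3 CPM with Zn. In *Baf250a* KD cells it was 51.6 and 51.7 CPM in NT, 84.2 and 83.8 CPM with Cu and 44.8 and 72.9 CPM with Zn, the last value from the shallow library. In *Brd9* KD cells it was 46.9 and 43.4 CPM in NT, 85.4 and 88.8 CPM with Cu and 51.9 and 49.0 CPM with Zn. In all 3 lines both Cu libraries were above both NT and both Zn libraries. Tested within each line by edgeR's quasi-likelihood test with Benjamini-Hochberg adjustment over all genes, *Gpr137b* rose with Cu in *Baf180* KD cells (log2 fold change 0.68, SE 0.10, adjusted p = 0.00664). Of all genes tested there, 13.8% were called, a share that was 0.362% without NT replicate 2. The rise was 0.71 (SE 0.10, adjusted p = 1.42e-04) in *Baf250a* KD cells, where 1.27% of genes were called, and 0.86 (SE 0.08, adjusted p = 0.00533) in *Brd9* KD cells, where 0.274% were called. The call in *Baf250a* KD cells was not made by DESeq2, which gave 0.70 with an adjusted p of 0.166. In *Baf180* KD cells edgeR's adjusted p was 0.0832 without NT replicate 2 (0.61). In *Brd9* KD cells it was 0.0763 without Cu replicate 1 (0.89) and 0.0509 without Cu replicate 2 (0.84).

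*Islr* fell with Cu in *Baf180* and *Brd9* KD cells and did not pass the test in *Baf250a* KD cells. In *Baf180* KD cells *Islr* was 153 and 134 CPM in NT, 102 and 101 CPM with Cu and 131 and 120 CPM with Zn. In *Brd9* KD cells it was 50.5 and 44.5 CPM in NT, 33.5 and 32.0 CPM with Cu and 47.1 and 43.8 CPM with Zn. In *Baf250a* KD cells it was 419 and 379 CPM in NT, 339 and 332 CPM with Cu and 364 and 319 CPM with Zn. Both Cu libraries were below both NT libraries in each line, and they overlapped the Zn libraries only in *Baf250a* KD cells. The log2 fold change with Cu was -0.53 (SE 0.08, edgeR adjusted p = 0.00778) in *Baf180* KD and -0.62 (SE 0.09, edgeR adjusted p = 0.0303) in *Brd9* KD cells. It was -0.24 (95% interval -0.44 to -0.04, edgeR adjusted p = 0.338) in *Baf250a* KD cells. The calls of *Islr* within lines depended on single libraries: edgeR's adjusted p was 0.0597 in *Baf180* KD cells without Cu replicate 1 (-0.54). In *Brd9* KD cells it ranged from 0.0800 to 0.328 without any of the 4 Cu and NT libraries in turn, with log2 fold changes of -0.69 to -0.54.

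Averaged over the 3 KD lines, *Islr* with Cu was 0.738 of its NT level (log2 fold change -0.44, SE 0.06, edgeR adjusted p = 4.33e-05). *Gpr137b* with Cu was 1.72-fold its NT level (log2 fold change 0.78, SE 0.07, edgeR adjusted p = 2.86e-07). In this comparison 20.2% of the 16272 genes tested were called, 10.9% higher and 9.38% lower, and 8.89% without *Baf180* KD NT replicate 2. Both calls were kept without each of the 12 Cu and NT libraries in turn, with log2 fold changes of -0.49 to -0.40 for *Islr* and 0.75 to 0.81 for *Gpr137b*. For *Islr* all 6 Cu libraries of the KD lines were below the mean of their line and all 6 NT libraries above it. For *Gpr137b* all 6 Cu libraries were above the mean of their line and all 6 NT libraries below it. Among the 6 Zn libraries of the KD lines, 2 were below the line mean for *Islr* and 1 above it for *Gpr137b*.

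**Figure D2:**
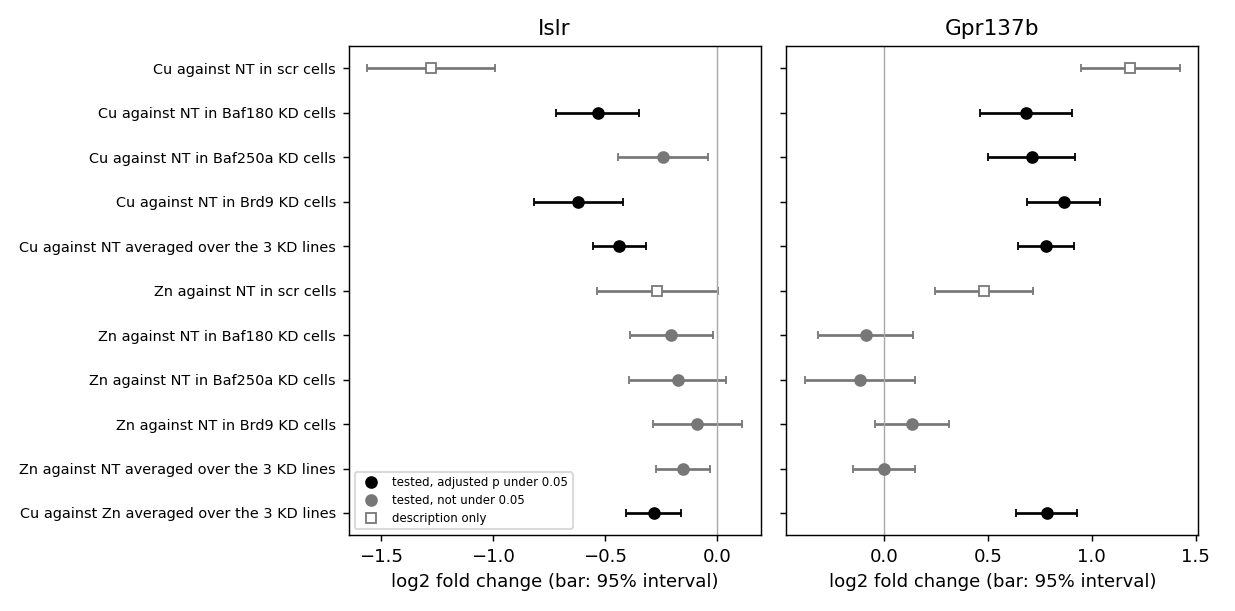
Log2 fold changes of *Islr* (left) and *Gpr137b* (right) with 95% intervals from edgeR for each metal response, where filled black points passed an adjusted p of 0.05, grey points did not and open squares are descriptions that share libraries with the choice of the genes. All Cu values of *Gpr137b* lie between 0.68 and 1.18, while its Zn values in the KD lines lie between -0.12 and 0.13.

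Neither gene passed the test with Zn in a KD line. The log2 fold change of *Gpr137b* with Zn was -0.09 (95% interval -0.32 to 0.14) in *Baf180* KD cells, where 0.0197% of genes were called. It was -0.12 (-0.38 to 0.15) in *Baf250a* KD cells, where 15.9% were called (1.70% without Zn replicate 1), and 0.13 (-0.05 to 0.31) in *Brd9* KD cells, where 0.0334% were called. The *Baf250a* KD value weighs the Zn libraries by their depth, and it was -0.21 without the shallow replicate 2 and 0.50 without replicate 1. The log2 fold change of *Islr* with Zn was -0.21 (-0.39 to -0.02) in *Baf180* KD, -0.18 (-0.39 to 0.04) in *Baf250a* KD and -0.09 (-0.29 to 0.11) in *Brd9* KD cells. Averaged over the KD lines the Zn value was -0.00285 (-0.15 to 0.15, edgeR adjusted p = 0.993) for *Gpr137b* and -0.15 (-0.27 to -0.03, edgeR adjusted p = 0.102) for *Islr*, where 7.42% of genes were called (0.717% without *Baf250a* KD Zn replicate 1). The *Islr* value passed the threshold under 5 of 7 alternatives, among them DESeq2 (-0.17, adjusted p = 0.0316) and the GC and length correction (-0.26, adjusted p = 0.00833 from edgeR).

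Set directly against Zn over the KD lines, Cu gave a higher *Gpr137b* level by a log2 difference of 0.78 (SE 0.07, edgeR adjusted p = 1.57e-06). *Islr* was lower with Cu than with Zn by a log2 difference of -0.28 (SE 0.06, edgeR adjusted p = 0.00615), and 5.60% of genes were called. Without the shallow library these differences were 0.81 and -0.32. Without *Baf250a* KD Zn replicate 1 the adjusted p of *Islr* was 0.0938 (-0.23). The metals were given at different doses, 100 µM and 50 µM, so these are differences between 2 treatments and not between equal exposures.

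The size of the Cu response was not shown to differ between KD lines. For *Islr* the difference in log2 fold change was -0.26 (95% interval -0.54 to 0.03) between *Baf180* and *Baf250a* KD, 0.07 (-0.23 to 0.36) between *Baf180* and *Brd9* KD, and 0.32 (0.03 to 0.62, edgeR adjusted p = 0.994) between *Baf250a* and *Brd9* KD. For *Gpr137b* it was 0.01 (-0.32 to 0.34), -0.20 (-0.53 to 0.13) and -0.21 (-0.54 to 0.12) for the same pairs. Intervals of this width do not show that the responses were alike. Few genes passed these tests: edgeR called 1 of 16524 (0.00605%), 0 (0.00%) and 0 (0.00%) for the 3 pairs, with 2132, 699 and 556 genes at an unadjusted p under 0.05. DESeq2 called 53, 0 and 0. Responses of the KD lines were not set against that of scr by a test, because the scr response chose the genes.

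**Figure D3:**
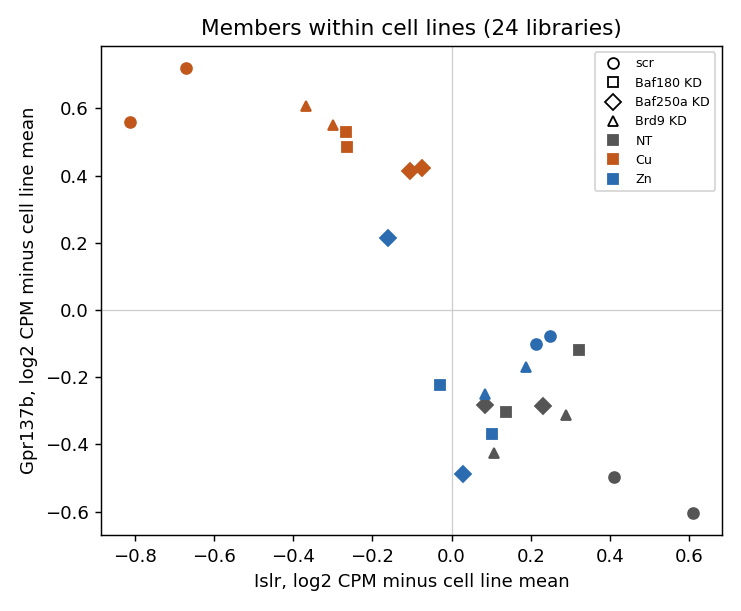
Log2 CPM of *Gpr137b* (vertical) against *Islr* (horizontal) in 24 libraries, each minus the mean of its cell line, with symbols for lines and colours for treatments. The 8 Cu libraries lie at the upper left and the 8 NT libraries at the lower right, while the shallow *Baf250a* KD Zn library stands apart from the other Zn libraries at the upper left.

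Cell line had a larger range of *Islr* levels than metal. In the order of the 12 group means, *Islr* ran from 8.52 ± 0.603 CPM (SD, n = 2) in scr with Cu to 399 ± 28.8 CPM in NT *Baf250a* KD cells. All groups of a line stood together, in the order scr, *Brd9* KD, *Baf180* KD, *Baf250a* KD. Neighbours in this order overlapped in 2 places, the Zn and NT groups of *Brd9* KD and the Cu and Zn groups of *Baf250a* KD. *Gpr137b* ran from 22.9 ± 1.22 CPM in NT scr to 87.1 ± 2.38 CPM in *Brd9* KD with Cu, and lines were interleaved. Overlaps joined the scr Zn, *Baf180* KD Zn and *Baf180* KD NT groups (31.6 to 33.7 CPM), and the groups from *Brd9* KD Zn to *Baf250a* KD Zn (50.5 to 58.9 CPM). Per kilobase of exon, *Islr* was at 7.61 and *Gpr137b* at 4.56 CPM per kb in NT scr cells, and at 149 and 10.3 CPM per kb in NT *Baf250a* KD cells.

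The libraries with Zn allow a test of KD against scr without the Cu and NT libraries whose contrast chose the genes. The scr Zn libraries were in the fit of that contrast and entered its estimate of spread, so the test is not wholly independent of the choice. With Zn, *Islr* was higher than in scr in all 3 lines, by a log2 difference of 2.89 (SE 0.07, edgeR adjusted p = 5.66e-08) in *Baf180* KD cells. The difference was 4.43 (SE 0.09, edgeR adjusted p = 3.32e-46) in *Baf250a* KD cells, or 21.6-fold, and 1.46 (SE 0.08, edgeR adjusted p = 1.69e-05) in *Brd9* KD cells. *Gpr137b* was higher in *Baf250a* KD cells by 0.59 (SE 0.11, edgeR adjusted p = 5.54e-06) and in *Brd9* KD cells by 0.70 (SE 0.07, edgeR adjusted p = 4.08e-04). In *Baf180* KD cells its difference was 0.00405 (95% interval -0.19 to 0.20, edgeR adjusted p = 0.974). These comparisons called 49.9% (*Baf180* KD), 57.5% (*Baf250a* KD) and 23.2% (*Brd9* KD) of genes, so a call alone is common. The *Gpr137b* value in *Baf250a* KD cells was 0.51 without the shallow library and 1.20 without the other Zn library of that line. Its adjusted p was 0.0640 (0.79) and 0.0770 (0.76) from edgeR without scr Zn replicate 1 or 2, and 0.05002 (0.76) by DESeq2. As a description, the log2 differences in NT cells were 2.79, 4.25 and 1.22 for *Islr* and 0.54, 1.14 and 0.99 for *Gpr137b* in *Baf180*, *Baf250a* and *Brd9* KD cells. With Cu they were 3.57, 5.34 and 1.93 for *Islr* and 0.07, 0.71 and 0.71 for *Gpr137b*.

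Among the KD lines, over all 3 treatments, *Islr* was lower in *Baf180* than in *Baf250a* KD cells by a log2 difference of -1.56 (SE 0.07, edgeR adjusted p = 7.62e-12). It was higher in *Baf180* than in *Brd9* KD cells by 1.56 (SE 0.05, edgeR adjusted p = 5.72e-12) and higher in *Baf250a* than in *Brd9* KD cells by 3.14 (SE 0.08, edgeR adjusted p = 4.71e-15). *Gpr137b* was lower in *Baf180* KD cells than in *Baf250a* KD (-0.62, SE 0.08, edgeR adjusted p = 4.03e-06) and *Brd9* KD cells (-0.59, SE 0.06, edgeR adjusted p = 4.30e-07). Between *Baf250a* and *Brd9* KD cells it differed by 0.06 (95% interval -0.11 to 0.22). These pairs called 45.7%, 41.4% and 55.1% of genes, respectively.

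Stromal markers moved with the line differences of *Islr*. The 19 stromal markers summed to 1277 to 1635 CPM in scr, 1485 to 1906 CPM in *Brd9* KD, 2956 to 3536 CPM in *Baf180* KD and 6694 to 9247 CPM in *Baf250a* KD libraries. These sums were carried mostly by the collagens *Col1a1*, *Col1a2* and *Col3a1*. With Zn, 10 of the 12 markers tested were higher and 1 lower in *Baf250a* KD than in scr cells, with a median log2 difference of 2.31 against -0.0145 over all genes. The counts were 11 higher and 1 lower of 13 in *Baf180* KD (median 0.92) and 7 higher and 1 lower of 12 in *Brd9* KD cells (median 0.50). Of all genes tested in these comparisons, 4241 of 14435 were higher and 4063 lower in *Baf250a* KD cells. In *Baf180* KD cells 3771 of 15136 were higher and 3776 lower, and in *Brd9* KD cells 1894 of 15002 were higher and 1589 lower. *Col1a1* averaged 36.2 CPM in scr and 2256 CPM in *Baf250a* KD libraries, and *Pdgfra* 4.42 and 58.4 CPM. Other stromal markers had no such order: *Postn* averaged 173 CPM in scr, 51.3 CPM in *Baf180* KD, 149 CPM in *Baf250a* KD and 58.5 CPM in *Brd9* KD libraries, *Fbln1* 56.5 and 55.5 CPM in scr and *Baf250a* KD, and *Gli1* 1.42 and 1.03 CPM. The markers *Thy1*, *Tcf21* and *Lum* were at or near 0 in all lines. Summed myoblast markers were 3886 to 5196 CPM in scr, 2730 to 3217 CPM in *Brd9* KD, 2813 to 3050 CPM in *Baf180* KD and 2196 to 2370 CPM in *Baf250a* KD libraries, sums carried mostly by *Des*, *Itga7* and *Chrna1*. By count, with Zn, 7 of 12 myoblast markers were higher and 4 lower than in scr in *Baf180* KD (median 0.22), 6 and 5 in *Baf250a* KD (median -0.16) and 4 and 5 in *Brd9* KD cells (median -0.22). The counts over all genes given above are the background of these counts too. *Vcam1* averaged 15.4 CPM in scr and 129 CPM in *Baf250a* KD libraries, and *Des* 2034 and 875 CPM. The part of cell makeup in the *Islr* differences was not tested.

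The pseudogene copy rose with *Gpr137b* but less. Averaged over the KD lines, *Gpr137b-ps* rose with Cu by 0.44 (SE 0.07, edgeR adjusted p = 3.33e-04) and had a Zn value of -0.02 (95% interval -0.18 to 0.14). Within lines it passed with Cu only in *Baf180* KD cells (0.41, edgeR adjusted p = 0.0362), where 13.8% of genes were called. Its Cu value was 0.20 (edgeR adjusted p = 0.588) in *Baf250a* KD and 0.63 (edgeR adjusted p = 0.0586) in *Brd9* KD cells. Counts of *Gpr137b* made up 60.2% to 67.2% of the sum of both copies in the 6 NT libraries of the KD lines (median 64.6%), 65.0% to 74.5% in the 6 Cu libraries (median 68.8%) and 61.5% to 68.5% in the 6 Zn libraries (median 64.9%). In each line both Cu libraries were above both NT libraries, although the ranges over lines overlap. The share was higher with Cu than with NT by 5.12 percentage points in a two-sided exact permutation test within lines (p = 0.00926, adjusted over 3 comparisons 0.0278), which is the smallest p that its 216 arrangements allow. Cu against Zn differed by 4.60 points (exact permutation p = 0.0185, adjusted 0.0278) and Zn against NT by 0.52 points (exact permutation p = 0.611). In scr cells the share was 59.7% and 61.9% in NT, 66.0% and 65.6% with Cu and 61.6% and 61.9% with Zn. With the counts of both copies summed, all calls on *Gpr137b* in KD lines were the same as for *Gpr137b* alone.

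**Figure D4:**
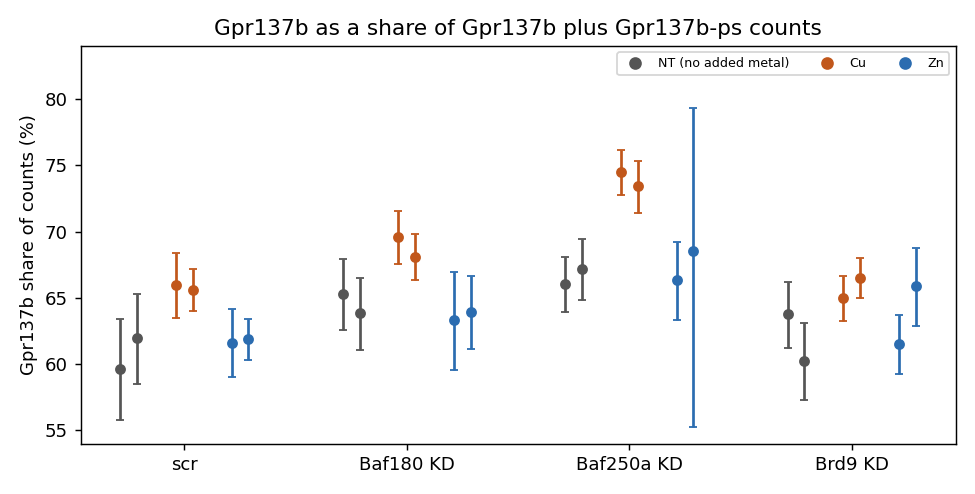
*Gpr137b* counts as a percentage of *Gpr137b* plus *Gpr137b-ps* counts in each library, by cell line and treatment, with 95% Wilson intervals that cover counting error only. Both Cu libraries lie above both NT libraries in each line, and the shallow *Baf250a* KD Zn library has the widest interval (55.3% to 79.3%).

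Of the other Gpr137 family members, *Gpr137* had group means of 24.4 to 37.1 CPM and an averaged Cu value of 0.000705 (95% interval -0.14 to 0.14), with no call for Cu or Zn. *Gpr137c* was low, with group means of 0.287 to 3.55 CPM, and its averaged Cu value of -0.33 (-0.89 to 0.24) did not pass. With Zn it was lower than in scr in *Baf180* KD (-3.39, edgeR adjusted p = 5.71e-05) and *Baf250a* KD cells (-2.21, edgeR adjusted p = 3.25e-05). The *Baf250a* KD value rests on 10 counts and, in the shallow library, 1 count. *Islr2*, a paralog of *Islr* known from axon guidance, had group means of 0.141 to 3.76 CPM. It was higher than in scr with Zn in *Baf180* KD (2.09, edgeR adjusted p = 0.00834) and *Baf250a* KD cells (3.25, edgeR adjusted p = 1.47e-06), and its averaged Cu value was -0.51 (-1.13 to 0.10). The Zn values rest on few counts: 15 and 14 in *Baf180* KD, 23 and 3 in *Baf250a* KD, and 3 and 17 in scr libraries. The mean of 3.76 CPM is that of *Baf250a* KD with Zn, at 1.60 CPM and, in the shallow library, 5.91 CPM. Because *Islr* and *Islr2* share exon sequence on the same strand, reads there cannot be assigned to either.

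Some chromosomal neighbours also responded to Cu over the KD lines. *Stra6*, a receptor for vitamin A uptake and the nearest gene on one side of *Islr*, fell by 1.001 (SE 0.13, edgeR adjusted p = 4.95e-05). *Sema7a*, a membrane-anchored semaphorin, rose by 0.17 (SE 0.05, edgeR adjusted p = 0.0190) but had 0.04 after GC and length correction. *Nid1*, the basement membrane linker nidogen-1, which is next to *Gpr137b*, rose by 0.68 (SE 0.06, adjusted p = 2.00e-07 from edgeR). Beyond the other end of *Gpr137b* the proliferin genes *Prl2c3* (1.70, edgeR adjusted p = 2.96e-07) and *Prl2c2* (1.40, edgeR adjusted p = 1.56e-05) rose and *Prl2c5* had 0.60 (edgeR adjusted p = 0.117). The proliferins are near-identical copies at means of 0.379 to 3.65 CPM, so their counts are uncertain. Among the 10 nearest protein-coding genes around each member, 2 of 8 tested around *Islr* and 3 of 10 around *Gpr137b* passed, beside 20.2% of all genes, and with Zn edgeR called 0 of them (1 at an unadjusted p under 0.05). Without the shallow library in the fit *Loxl1* (-0.14, edgeR adjusted p = 0.0463) and *Lyst* (-0.19, edgeR adjusted p = 0.0458) also passed.

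**Figure D5:**
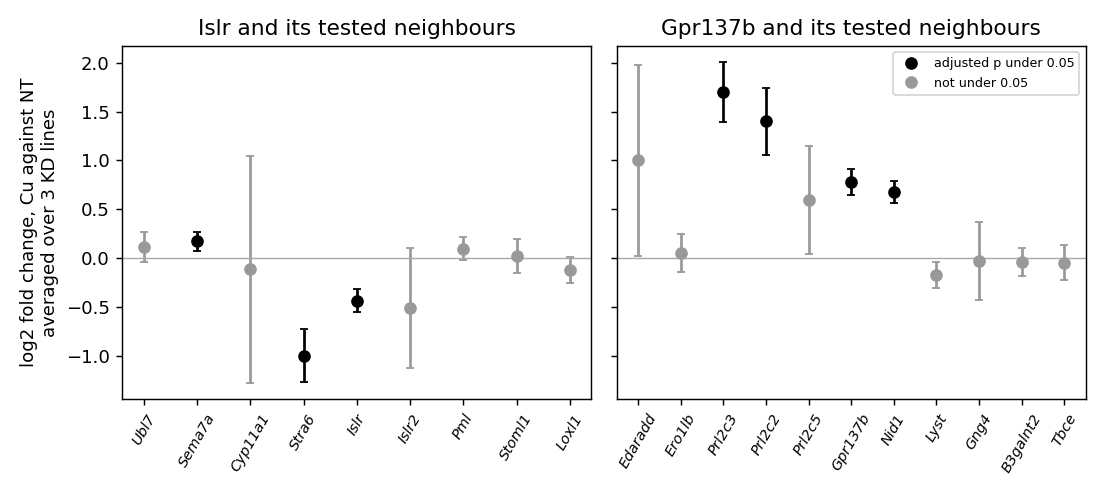
Log2 fold change with Cu against NT averaged over the 3 KD lines, with 95% intervals, for *Islr* (left), *Gpr137b* (right) and their tested neighbours in chromosomal order. Black points passed an adjusted p of 0.05 in edgeR: *Stra6* lies at -1.001 beside *Islr*, and *Nid1* at 0.68 and *Prl2c3* at 1.70 near *Gpr137b*.

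The genes whose levels were most like *Islr* over the 24 libraries, by Pearson correlation of log2 CPM among 9300 genes, were *C1qtnf1* (0.993), *Cyp1b1* (0.989), *Pdgfra* (0.988), *Vsir* (0.987) and *Tnfrsf1b* (0.985). The 24 values share 4 line means, so these coefficients are descriptions. With line means removed, the most alike were *Dhrs3* (0.902), *Synpo* (0.877), *Gas1* (0.856), *St3gal5* (0.850) and *H19* (0.839). All 5 of the latter passed as lower with Cu over the KD lines, beside 9.38% of all genes. They were ranked on libraries that include the tested ones, so these calls are not independent of the ranking. Their log2 fold changes ran from -0.48 for *Dhrs3*, which reduces retinaldehyde, to -0.18 for *St3gal5*, which makes the ganglioside GM3.

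For *Gpr137b* the most alike in level were *Gpr137b-ps* (0.923), *Slc29a3* (0.870), *Slc41a2* (0.859), *Nid1* (0.855) and *Tnfrsf22* (0.846). With line means removed they were *Gpr137b-ps* (0.941), *Gbe1* (0.931), *Nid1* (0.910), *Tnfrsf22* (0.903) and *Fosl1* (0.901). *Gbe1*, the glycogen branching enzyme, rose with Cu by 0.37 (edgeR adjusted p = 4.26e-04) and *Fosl1*, an AP-1 transcription factor, by 0.52 (edgeR adjusted p = 9.17e-06) over the KD lines. *Slc29a3* encodes a lysosomal nucleoside transporter and *Slc41a2* a magnesium transporter. These genes were ranked on libraries that include the tested ones, so their calls are not independent of the ranking. Without the shallow library *Nid1*, *Gpr137b-ps*, *Gbe1* and *Tnfrsf22* stayed among the 5 most alike to *Gpr137b* with line means removed, and *Dhrs3*, *Gas1*, *Synpo* and *St3gal5* among those to *Islr*. The rankings by level changed more. For *Gpr137b*, *Btbd19* (0.878) and *Abcc4* (0.862) then took the places of *Slc41a2* and *Tnfrsf22*. For *Islr*, *Dhrs3* (0.990) and *Atoh8* (0.987) took those of *Vsir* and *Tnfrsf1b*.

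Around the known roles of *Gpr137b*, 9 of 37 tested genes of the Rag and mTORC1 list rose with Cu over the KD lines and 3 fell, where 10.9% of all genes rose and 9.38% fell, with a median log2 fold change of 0.06 beside 0.0127 over all genes. *Itfg2*, a subunit of the KICSTOR scaffold, rose by 0.31, and *Sesn1*, a leucine-sensing inhibitor of the pathway, fell by 0.31. *Fnip1*, a partner of folliculin, fell by 0.31 but had -0.06 after GC and length correction, under which 1 gene of the list was higher and 2 were lower. Of 39 genes of the lysosomal list, 7 passed, all of them as higher, with a median of 0.12, beside the same shares of all genes. They include the autophagy receptor *Sqstm1* (0.47), *Gpnmb* (0.33) and the galactosidase *Gla* (0.25). After GC and length correction 5 genes of this list were higher and 0 lower, with a median of 0.04 beside -0.00321 over all genes. The correction also lowered the calls over all genes, from 1767 higher and 1527 lower to 1038 and 926, so fewer calls are not particular to these lists. Without the shallow library more lysosomal genes were called with Cu, mostly as higher, and more of all genes were called as well. With Zn 1 gene of the Rag and mTORC1 list (*Fnip1*, -0.42) and 2 of the lysosomal list (*Tpp1*, -0.27, and *Lamp2*, -0.23) passed by edgeR, all as lower, where 4.22% of all genes were higher and 3.21% lower. After GC and length correction the Zn counts were 0 for the Rag and mTORC1 list, and 0 higher and 4 lower for the lysosomal list. Over all genes the Zn calls then were 423 higher and 381 lower, against 686 and 522 without the correction. Without the shallow library more genes of both lists were called with Zn, some of them as higher, and more of all genes were called as well.

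Around the known roles of *Islr*, 4 of 19 tested genes of the list of leucine-rich repeat and immunoglobulin proteins rose with Cu and 3 fell, *Islr* included, where 10.9% of all genes rose and 9.38% fell. *Lrrn1*, a neuronal leucine-rich repeat protein, fell by 0.78 and *Amigo2*, an adhesion protein, rose by 0.44. Of 21 BMP signalling genes, the inhibitor *Smad7* rose by 0.23, and the receptors *Bmpr2* (-0.35) and *Bmpr1a* (-0.21) fell. After GC and length correction these 3 values were 0.12, -0.10 and -0.02, and none of them passed. Of 15 genes of the dishevelled and catenin list, 3 rose and 2 fell, among them *Tcf7* (0.35), a transcription factor of the Wnt pathway, and *Apc* (-0.32), a scaffold of catenin breakdown. After that correction 1 gene of this list was higher and 1 lower, where 1038 of all genes were higher and 926 lower. Of 5 lysyl oxidases, *Loxl4* rose by 0.21, which was 0.09 after the correction, and *Loxl2* fell by 0.34. Medians of these 4 lists lay between -0.03 and 0.05, beside 0.0127 over all genes. With Zn, edgeR called 1, 3, 1 and 1 genes of these lists, all as lower. With the shallow library left out, more of all genes were called with Zn. The leucine-rich repeat and immunoglobulin list and the dishevelled and catenin list then had calls as higher too, while the BMP list had fewer calls.

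The stromal marker list had 3 of 15 tested members called with Cu by edgeR, all as lower, beside 9.38% of all genes: *Postn* (-1.003), *Dcn* (-0.96) and *Col3a1* (-0.22), all matrix proteins. Its median was -0.11. Of 12 myoblast markers, 4 passed by edgeR, all as lower (median -0.12), among them the receptor *Fgfr4* (-1.02) and the myogenic factor *Myog* (-0.35). Among the tested macrophage markers edgeR called 0 of 4 (1 at an unadjusted p under 0.05), and among the rRNA-linked genes 0 of 5 (also 0 at an unadjusted p under 0.05). With Zn 2 of 15 stromal and 2 of 12 myoblast markers were lower, beside 3.21% of all genes. After GC and length correction 0 stromal and 2 myoblast markers were lower with Zn, where 381 of all genes were lower against 522 without the correction. In fits without the shallow library more stromal and myoblast markers were lower with Cu, and more of all genes were called as well. With Zn more myoblast markers were lower, but not more stromal ones. For comparison, 9 of 11 metal and oxidative stress genes rose with Cu (median 0.66, beside 10.9% of all genes), including *Gsta4* (1.16), *Nqo1* (1.14), a quinone reductase, and *Srxn1* (0.95), a sulfiredoxin. With Zn 8 rose (9 without the shallow library) and 1 fell: the metallothioneins *Mt2* (1.66) and *Mt1* (1.30) rose and the zinc importer *Slc39a10* fell by 1.19.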

How the data were processed

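The authors aligned paired reads to mm10 with STAR, keeping uniquely mapped pairs, and counted them by strand with featureCounts. The deposited counts are whole numbers for 55291 symbols and were not normalized. The deposited tables of the authors' own DESeq2 comparisons (log2 fold changes and p-values) were not used. Groups were taken from sample titles, because a treatment tag contradicts them. According to the study's methods the replicates are independent biological ones. Totals of 495778 to 75179394 counts per library set the precision, and intervals of shares cover counting error only.

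Fits used edgeR 4.0.16 (glmQLFit and glmQLFTest, TMM, filterByExpr) in R 4.3.3, with Benjamini-Hochberg adjustment over all genes tested and a threshold of 0.05. Each line's 6 libraries gave its metal responses, and the 18 KD libraries the averages, with KD against scr fitted on 4 libraries, KD lines against each other on 12, and differences between Cu responses on 24. CPM are edgeR's (prior count 2 on the log2 scale). Alternatives were DESeq2 1.42.0, RLE size factors, a filter of at least 1 count, 1 fit of all libraries, both gene copies summed, a replicate block, a correction for GC content and length, and leaving out each library. The test of the copy share and the fits of lists and neighbours without the shallow library were added after seeing the data. Annotation was GENCODE M21 (53292 symbols matched), and promoters came from RefSeq on GRCm38. The scripts were tested on simulated data.

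The 2 genes and all lists were chosen with earlier results of these data known. Genes named were the members, their families, the genes called in scr cells with Cu and the next 3, the 5 nearest protein-coding genes on each side, the 5 most alike by either measure (mean of at least 10 CPM), and up to 3 called genes of each list with the largest change, of which 1 is not reported here.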

Additional observations from a re-analysis of the deposited data

How the results depend on the processing

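No result for *Islr* or *Gpr137b* changed direction past the threshold. Over 36 values per alternative, the single fit of all 24 libraries and the filter of at least 1 count changed no call. DESeq2 lost 2 calls of *Gpr137b*, with Cu in *Baf250a* KD cells (0.70) and in *Baf250a* KD against scr with Zn (0.76). The averaged Zn value of *Islr*, -0.15 and not called, passed with DESeq2 (-0.17), RLE size factors (-0.17), the GC and length correction (-0.26) and the 2 blocked fits below. The cause was not tested. Leaving out each library gave 256 of 267 values with the same call and 11 weaker ones. The ranges were -0.60 to -0.46 (*Islr*) and 0.61 to 0.75 (*Gpr137b*) for Cu in *Baf180* KD, -0.69 to -0.54 and 0.83 to 0.91 for Cu in *Brd9* KD, -0.32 to -0.23 for *Islr* with Cu against Zn, and 0.51 to 1.20 for *Gpr137b* in *Baf250a* KD against scr with Zn. A fit that leaves an arm with 1 sample assumes that it varies like the others.

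With the replicate number as a block the averaged Zn value of *Islr* was -0.16, and -0.27 with the GC and length correction as well. Deviations of same-numbered libraries correlated between -0.49 and 0.62, and with 2 replicates the numbers were not shown to pair the libraries. In *Baf180* KD cells all 3 correlations were positive (0.16, 0.59 and 0.32), and there the block moved the Cu calls from 2097 to 3892 and the Zn calls from 3 to 657. All 3 were also positive in *Baf250a* KD cells, but smaller (0.00339, 0.0874 and 0.0588). The block changed no other call of the members.

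Counts of called genes depended on the settings. Leaving out libraries aside, Cu calls ranged from 914 to 3892 (2097 as reported) in *Baf180* KD, 32 to 268 (187) in *Baf250a* KD and 37 to 1060 (41) in *Brd9* KD cells. Zn calls ranged from 3 to 657 (3), 330 to 2334 (2334) and 3 to 29 (5). The averages ranged from 1964 to 4167 (3294) for Cu, 804 to 2050 (1208) for Zn and 820 to 1871 (911) for Cu against Zn. KD against scr with Zn ranged from 2983 to 8764 (8304) in *Baf250a* KD and 2622 to 5566 (3483) in *Brd9* KD cells. Differences between Cu responses ranged from 0 to 408 (1), 0 to 25 (0) and 0 to 22 (0). Leaving out each library in turn gave 57 to 2168, 92 to 136 and 0 to 10 Cu calls in *Baf180*, *Baf250a* and *Brd9* KD cells, lowest without *Baf180* KD NT replicate 2 (112 without Cu replicate 1), *Baf250a* KD Cu replicate 2 and *Brd9* KD Cu replicate 1. Zn calls were 2 to 7, 266 to 3539 and 3 to 4, with 266 without *Baf250a* KD Zn replicate 1 and 3539 without replicate 2. The averages were 1516 to 3455 for Cu, lowest without *Baf180* KD NT replicate 2, and 123 to 1929 for Zn and 259 to 1622 for Cu against Zn, both lowest without *Baf250a* KD Zn replicate 1. KD against scr with Zn gave 5258 to 8422, 2614 to 9629 and 1784 to 6266 in the same order of lines, each lowest without scr Zn replicate 2. Differences between Cu responses gave 0 to 16, 0 and 0 to 1. Depth limits the *Baf250a* KD Zn values, which rest in part on a library of 495778 counts.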
